A study of Mus musculus with 39 samples.

Results

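Heart miRNAs of male FVB/NJ mice were compared between 6 weeks of age and the 4 to 5 weeks that follow weaning, in 17 of the series' 39 small RNA libraries. The libraries were chosen by the sex and age in their titles, which gave 2 libraries of 4-week males, 3 of 5-week males and 12 of 6-week males, and no library of another age was used. FVB/NJ is an inbred albino laboratory strain, and the labels name no transgene, drug or surgery for any of the 3 groups. The labels place the tissue both as whole heart and, in the account of the extraction, as the apex of the ventricles. They do not say that each library came from its own mouse, so p-values here measure the spread between libraries, which may be technical.

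A miRNA is a short RNA cut from a hairpin precursor, which yields a 5p and a 3p arm, and it steers silencing complexes to messenger RNAs mainly through its seed, bases 2 to 8. miRNAs that share a seed are expected to recognise largely the same messages. Heart muscle cells of the mouse stop dividing soon after birth and the heart then grows by enlargement of its cells, and adult heart muscle relies on the alpha myosin gene Myh6, an intron of which holds miR-208a. In the heart, miR-29 is known for repressing collagen and other matrix genes, miR-30 for repressing matrix and autophagy genes, and let-7 and miR-125 for rising in many tissues as they develop.

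The results turn on a few seed families, whose mature sequences are shown first, with the seed in capitals. RefSeq sequences on GRCm38.p6 were used. The seed of miR-99 and miR-100, in the set that was lower at 6 weeks, is the same in all 3 relatives.
miR-99a-5p: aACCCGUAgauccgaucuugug
miR-99b-5p: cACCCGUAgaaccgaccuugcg
miR-100-5p: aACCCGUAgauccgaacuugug
The second lower set shares another seed, although miR-351 lies on another chromosome than its relatives.
miR-125a-5p: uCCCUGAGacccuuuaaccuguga
miR-125b-5p: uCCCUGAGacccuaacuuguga
miR-351-5p: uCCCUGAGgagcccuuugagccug
The miR-29 set was higher at 6 weeks in all 3 relatives.
miR-29a-3p: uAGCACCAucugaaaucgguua
miR-29b-3p: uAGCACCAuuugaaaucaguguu
miR-29c-3p: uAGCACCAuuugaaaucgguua
miR-101a-3p and miR-101b-3p were higher as well, and miR-101b-3p is listed with 1 more base at its 5′ end, so that its bases 2 to 8 are shifted.
miR-101a-3p: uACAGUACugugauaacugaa
miR-101b-3p: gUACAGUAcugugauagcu
The let-7 5p arms shown share a seed and differ at few bases outside it.
let-7a-5p: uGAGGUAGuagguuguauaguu
let-7b-5p: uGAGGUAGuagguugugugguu
let-7c-5p: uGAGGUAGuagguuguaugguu
The miRNAs of the myosin genes Myh6 (miR-208a) and Myh7 (miR-208b) share a seed.
miR-208a-3p: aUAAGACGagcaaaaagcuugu
miR-208b-3p: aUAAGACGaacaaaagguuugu
Over the first 22 bases miR-99a-5p and miR-100-5p differ at 1 base, miR-29a-3p and miR-29c-3p at 1, miR-30a-5p and miR-30e-5p at 1, let-7a-5p and let-7c-5p at 1, and miR-208a-3p and miR-208b-3p at 3. Reads of such relatives could have been split between them in the counting, so the sum of each family is given beside its members.

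Total counts ran from 3970178 to 7505352 in the 5 young libraries and from 4146777 to 14563754 in the 12 of 6 weeks. Levels below are CPM, counts scaled to a common library size, after TMM, a correction for differences in composition between libraries. The labels give no batch. Where several genomic copies encode 1 mature miRNA, libraries were clustered by the split of its counts between the copies, using 20 such miRNAs. The number of sets, 4, was fixed by choice and not found from the data. The 5 libraries of 4 and 5 weeks made up set 1, and the 6-week libraries fell into set 2 (replicates 1 to 5), set 3 (replicates 6, 7, 11 and 12) and set 4 (replicates 8 to 10). For let-7a-5p the copy with fewer counts took on average 6.87% of counts in set 1, 14.4% in set 2, 19.8% in set 3 and 10.9% in set 4. No male 6-week library shared a set with the younger ones, so the library set and age cannot be told apart, and what the sets stand for is not given in the labels. Values without set 4, by set or in set 4 alone are given beside most of the results below. All of them are set against the same 5 young libraries, so a like direction in several is not independent support. Of the 6-week female libraries, replicate 2 lay nearest to set 1. Its distance from the mean split of that set was 1.23, while male libraries lay at most 1.14 from the mean of their own set. This library gave a comparison within the set in which sex differs and 1 library stands for 6 weeks.

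**Figure D1:**
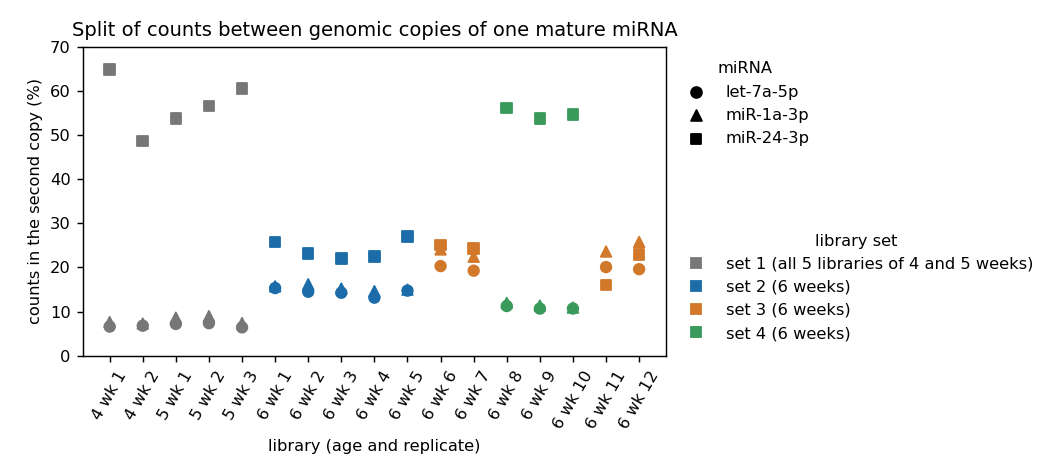
Share of counts (%, vertical axis) in the second genomic copy of let-7a-5p (circles), miR-1a-3p (triangles) and miR-24-3p (squares) in each of the 17 libraries (horizontal axis, age and replicate), coloured by library set. The 5 libraries of 4 and 5 weeks lie together for let-7a-5p and miR-1a-3p. For miR-24-3p they spread from 48.62% to 64.85%, a range that holds the 6-week libraries of set 4 (53.79% to 56.18%). The 6-week libraries fall into 3 levels of let-7a-5p, with means of 14.4%, 19.8% and 10.9%.

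Of 303 miRNAs tested, 153 passed an adjusted p of 0.05 between 6 weeks and 4 to 5 weeks (50.5%), with 86 higher at 6 weeks (28.4%) and 67 lower (22.1%). The median log2 difference over all 303 was 0.10. With libraries scaled by total counts alone, 104 passed (34.3%), with 71 higher (23.4%) and 33 lower (10.9%), so that 68.3% of calls were higher against 56.2% with TMM. The 6-week sets did not give the same picture: 161 miRNAs passed for set 2 alone (53.1%), 172 for set 3 alone (56.8%) and 0 for set 4 alone, where edgeR gave 79 at an unadjusted p under 0.05 and a smallest adjusted p of 0.0848. With set 4 left out, a comparison chosen after the data were seen, 201 passed (66.3%), with 107 higher (35.3%) and 94 lower (31.0%). For the female 6-week library of set 1, 0 passed and 10 had an unadjusted p under 0.05. The median size of the log2 difference from the young libraries was 0.49 in set 2, 0.45 in set 3 and 0.26 in set 4. Of the 153 called, the set 4 mean lay nearer to the young mean than to that of sets 2 and 3 for 95, and all 3 set 4 libraries lay within the young range for 46.

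**Figure D2:**
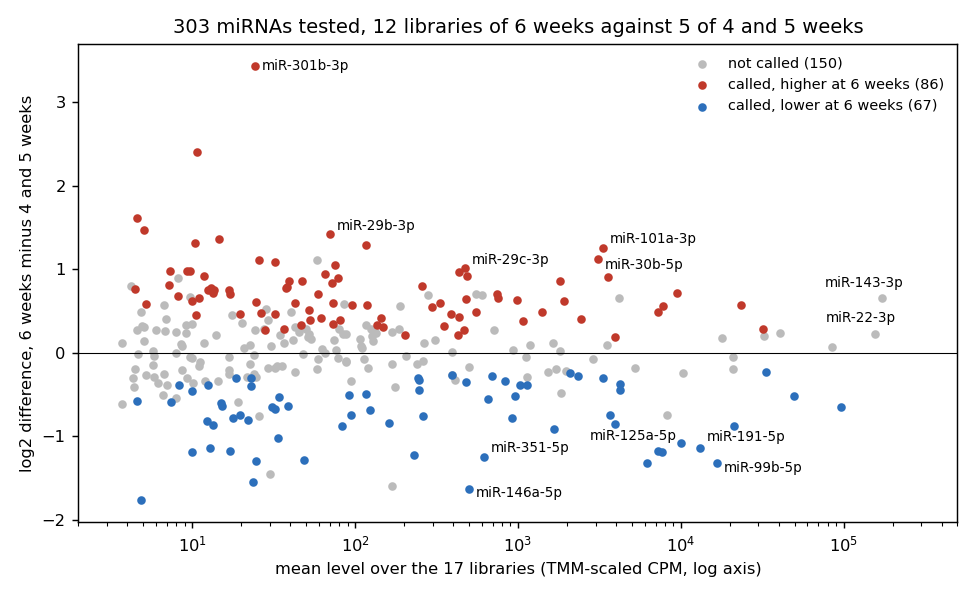
Each point is 1 of the 303 miRNAs tested, with its mean level over the 17 libraries (TMM-scaled CPM, log axis) and its log2 difference, 6 weeks minus 4 and 5 weeks. The 86 called higher (red) and 67 called lower (blue) span the range of levels. miR-301b-3p stands highest at 3.44, with young levels below 5 CPM.

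**Figure D3:**
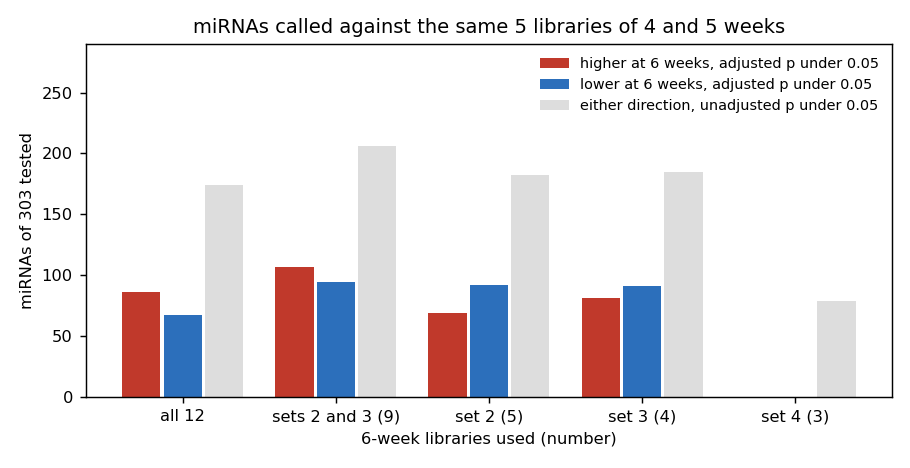
Number of miRNAs of the 303 tested that passed when different 6-week libraries were set against the same 5 libraries of 4 and 5 weeks: red bars are called higher, blue bars called lower, and grey bars have an unadjusted p under 0.05 in either direction. Sets 2 and 3 each gave over 160 calls on their own, and set 4, with 3 libraries, gave 0 calls and 79 at the unadjusted threshold.

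All 12 libraries of 6 weeks lay outside the range of all 5 young ones for 14 miRNAs on the called side, which is the whole background of such miRNAs among the 303 (4.62%; 2.64% above and 1.98% below). The 8 above were miR-29c-3p, miR-101a-3p, miR-101b-3p, miR-301b-3p, miR-340-5p, miR-582-5p, miR-22-5p and let-7b-3p. The 6 below were miR-125a-5p, miR-125b-5p, miR-351-5p, miR-191-5p, miR-340-3p and miR-23a-3p. Those of miR-340 and miR-582-5p were picked for naming after their values were seen.

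The miR-99, miR-100, miR-125 and miR-10 families were mostly lower at 6 weeks. Their 5p arms are the abundant ones, and 6 of 7 tested were lower at 6 weeks, none higher, with a median log2 difference of -1.18; the seventh, miR-10b-5p, stood at -0.74 (adjusted p = 0.0505). Of all 12 tested members 7 were lower and 1 higher, beside 22.1% and 28.4% of all miRNAs tested. With set 4 left out all 7 of the 5p arms were lower, beside 31.0% of all miRNAs tested in that fit. In set 4 alone their median was -0.20, and 0 passed.

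miR-125a-5p, encoded at chr17:17830817-17830840 in an exon of Spaca6, stood at 12873 and 9705 CPM in the 4-week libraries and at 10179, 10737 and 19918 CPM in the 5-week ones. At 6 weeks it ran from 4616 over a median of 5667 to 6672 CPM. Every 6-week library lay below every younger one, whatever its set. The log2 difference was -1.18 ± 0.13 (SE; adjusted p = 1.28e-05 by edgeR, the smallest of the 303), and it was -1.19 with set 4 left out, -1.14 in set 4 alone (adjusted p = 0.0848) and -1.18 in the female library of set 1. miR-125a and miR-125b are the mammalian relatives of lin-4, a miRNA that times larval development in the worm.

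The 2 relatives with the same seed fell too, but less in set 4. miR-351-5p, of the miR-322 and miR-503 cluster on the X chromosome, stood at 1242 and 1004 CPM at 4 weeks and at 870.5, 929 and 1198 CPM at 5 weeks. It ran from 337 over 372 to 746 CPM at 6 weeks, a log2 difference of -1.25 ± 0.19 (adjusted p = 0.00022). All 12 were below all 5, and the 3 highest of the 12 were those of set 4, at 599 to 746 CPM. miR-125b-5p, whose 2 copies lie in an intron of the host transcript Mir99ahg on chromosome 16 and in the non-coding gene Gm28119 on chromosome 9, was at 13646 and 13791 CPM at 4 weeks and at 14810, 13975 and 24176 CPM at 5 weeks. At 6 weeks it ran from 5254 over 6449.8 to 13399 CPM (-1.08 ± 0.20, adjusted p = 0.000629), with set 4 at 9578 to 13399 CPM. The sum of miR-125a-5p, miR-125b-5p and miR-351-5p was 24501 to 45292 CPM in the young libraries and 10285 to 20817 CPM at 6 weeks, without overlap.

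miR-99b-5p is made from the same host gene as miR-125a, Spaca6, and stood apart from it in the libraries of set 4. It stood at 20122 and 50228 CPM at 4 weeks and at 19151, 16169 and 39184 CPM at 5 weeks. At 6 weeks it ran from 7698 over 8554 to 24167 CPM (-1.32 ± 0.32, adjusted p = 0.00379). All libraries of sets 2 and 3 lay at or below 8834 CPM, while set 4 held 18267 to 24167 CPM, inside the young range. Replicate 2 of 4 weeks and replicate 3 of 5 weeks were the highest young libraries here, as they were for miR-99a-5p and miR-100-5p. miR-99a-5p fell by 1.31 ± 0.45 on the log2 scale (adjusted p = 0.0246), by 2.18 with set 4 left out and by 0.05 in set 4 alone, and the call was lost without replicate 2 of 4 weeks or replicate 3 of 5 weeks (highest adjusted p = 0.0867). miR-100-5p fell by 1.18 ± 0.35 (adjusted p = 0.0129), by 1.73 without set 4 and by 0.20 in it. In the female library of set 1 the differences of miR-99b-5p, miR-99a-5p and miR-100-5p were -0.98, -0.82 and -0.93. The sum of these 3 relatives was 28995 to 85296 CPM in the young libraries and 13058 to 49027 CPM at 6 weeks, where all 9 libraries of sets 2 and 3 lay at or below 15508 CPM.

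miR-10a-5p, from within the Hoxb cluster and known as a regulator of endothelial inflammation, was at 24282 to 42693 CPM in the young libraries and ran from 10689 over 14393 to 30359 CPM at 6 weeks. It fell by 0.88 ± 0.25 (adjusted p = 0.00906), by 1.25 without set 4, and stood at -0.09 in set 4 and at 0.42 in the female library of set 1. The other arm of the miR-99a hairpin went the opposite way: miR-99a-3p rose from 9.62, 11.5, 13.5, 11.9 and 9.97 CPM to a median of 19.9 CPM at 6 weeks (0.76 ± 0.16, adjusted p = 0.00188), with 0.25 in set 4 alone.

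miR-191-5p, which lies in an exon of the long non-coding RNA gene 4833445I07Rik (chr9:108568325-108568347), showed the split between the 6-week sets plainly. The young libraries were close together, at 21057 and 20822.5 CPM at 4 weeks and 21022, 21528 and 22244 CPM at 5 weeks. Sets 2 and 3 lay at 5535 to 7546 CPM and set 4 at 18811 to 20428 CPM. All 12 were below all 5, and the log2 difference was -1.14 ± 0.32 (adjusted p = 0.00905) over all, -1.74 ± 0.07 without set 4, -0.09 in set 4 and -0.10 in the female library of set 1.

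miR-146a-5p, a feedback inhibitor of inflammatory signalling through NF-kappa B, behaved likewise. It stood at 1314 and 656 CPM at 4 weeks and at 1204, 877 and 714 CPM at 5 weeks, at 47.8 to 147 CPM in sets 2 and 3, and at 555 to 1216 CPM in set 4. The log2 difference was -1.63 ± 0.63 (adjusted p = 0.0421), -3.12 without set 4 and -0.04 in set 4, and it was -0.38 in the female library of set 1. The call was lost when any 1 of 14 of the 17 libraries was left out (highest adjusted p = 0.104). Its relative miR-146b-5p, which differs at 2 bases, did not pass over all 12 libraries (-1.59 ± 0.71, adjusted p = 0.0692) and stood at -3.31 without set 4. The summed pair was 886 to 1769 CPM in the young libraries, 55.8 to 191 CPM in sets 2 and 3, and 753 to 1689.5 CPM in set 4. Thus sets 2 and 3 lay below the young range and set 4 across it.

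**Figure D4:**
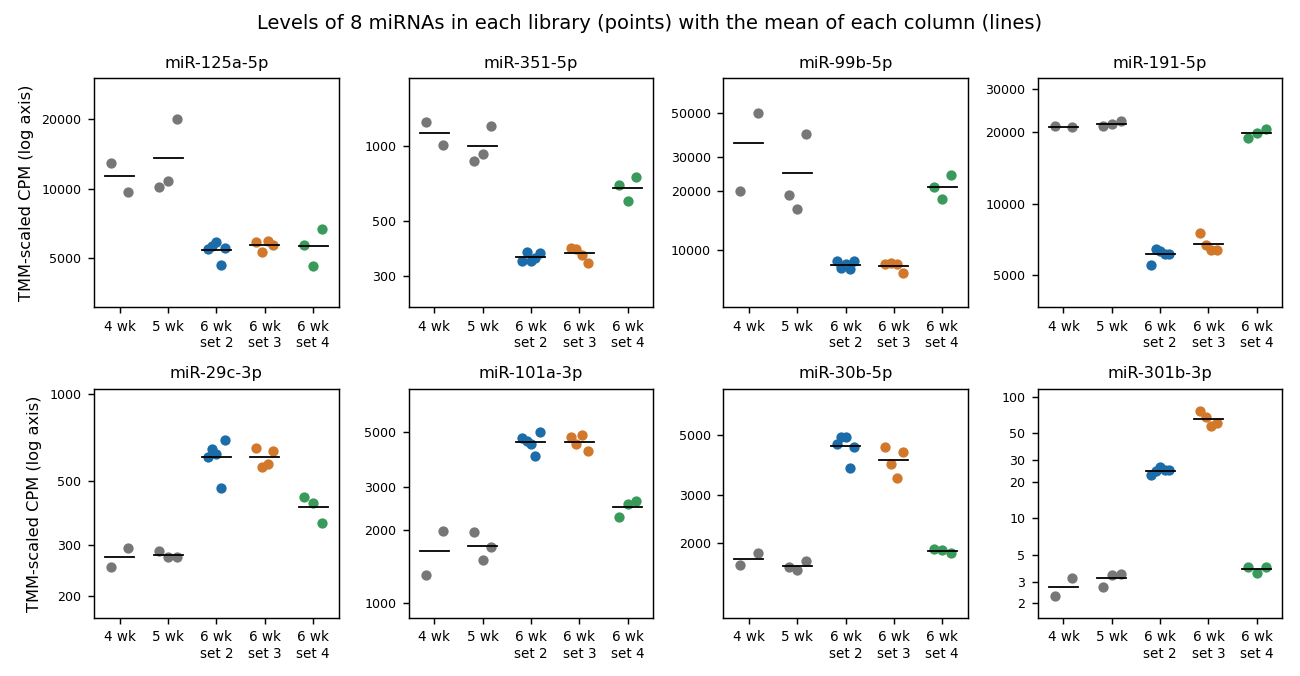
Levels (TMM-scaled CPM, log axis) of 8 miRNAs in every library, by age and, at 6 weeks, by library set; points are libraries and lines the mean of each column. For miR-125a-5p the 3 columns of 6 weeks lie at a like level below the younger ones; for miR-99b-5p, miR-191-5p, miR-30b-5p and miR-301b-3p set 4 lies near the 4- and 5-week libraries; for miR-351-5p, miR-29c-3p and miR-101a-3p it lies between them and sets 2 and 3.

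The miR-29 family rose as a whole: all 5 tested arms were higher at 6 weeks, beside 28.4% of all miRNAs tested, with a median log2 difference of 1.01 against 0.10. All 5 also passed with libraries scaled by total counts (23.4% of all higher), with DESeq2 (28.7% higher, 24.1% lower and 52.8% in all) and without set 4 (35.3%). Against the same young libraries their median was 0.39 in set 4 and 0.51 in the female library of set 1, where 0 passed. miR-29c-3p, in an exon of the non-coding gene A330023F24Rik (chr1:195037600-195037621), stood at 252 and 293 CPM at 4 weeks and at 286, 273 and 273 CPM at 5 weeks. At 6 weeks it ran from 358 over 588 to 693 CPM, above every younger library. The log2 difference was 1.01 ± 0.14 (adjusted p = 0.000143), 1.14 without set 4 and 0.60 in set 4 alone (adjusted p = 0.0848).

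miR-29b-3p, made in part from the same transcript as miR-29c, was at 21.3 and 57.6 CPM at 4 weeks and at 29.6, 20.5 and 29.6 CPM at 5 weeks. It ran from 47.6 over 91.7 to 124.6 CPM at 6 weeks (1.43 ± 0.28, adjusted p = 0.000919), and replicate 2 of 4 weeks was the 1 young library that overlapped. miR-29a-3p, the most abundant of these relatives, was at 1229 and 1178 CPM at 4 weeks, at 1666, 1484 and 1412 CPM at 5 weeks, and from 1357 over 2307 to 2588 CPM at 6 weeks (0.63 ± 0.16, adjusted p = 0.00464). Set 4, at 1357 to 1645 CPM, lay within the young range. The sum of the 3 relatives with this seed was 1502 to 1981 CPM in the young libraries and 1846 to 3382 CPM at 6 weeks, with all of sets 2 and 3 at 2372 CPM or more.

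miR-101, known to repress the Polycomb enzyme Ezh2, rose about as much. miR-101a-3p stood at 1308 and 1966 CPM at 4 weeks and at 1956, 1505 and 1693 CPM at 5 weeks, and ran from 2251 over 4479.9 to 5003 CPM at 6 weeks. All 12 were above all 5, with set 4 the lowest of the 12 (2251 to 2625 CPM). The log2 difference was 1.26 ± 0.20 (adjusted p = 0.000233), 1.44 without set 4 and 0.58 in it. miR-101b-3p rose by 0.92 ± 0.15 (adjusted p = 0.000271), with 0.45 in set 4, and the summed pair went from 1555 to 2319.8 CPM in the young libraries to 2621 to 5640.5 CPM at 6 weeks.

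Of the miR-30 family 7 of 11 tested arms were higher and 0 lower, beside 28.4% and 22.1% of all miRNAs tested, with a median of 0.34 against 0.10. In set 4 the family did not lean one way: 5 arms were above the young libraries and 6 below. miR-30b-5p showed this most: it stood at 1669 and 1852 CPM at 4 weeks, at 1634, 1605 and 1730.5 CPM at 5 weeks, at 3481 to 4889 CPM in sets 2 and 3 and at 1849.7 to 1912 CPM in set 4. The log2 difference was 1.13 ± 0.24 (adjusted p = 0.00179), 1.35 without set 4 and 0.18 in set 4. miR-30c-5p rose by 0.71 ± 0.20 (adjusted p = 0.0088), by 0.91 without set 4, and stood at -0.05 in set 4. miR-30e-5p, from an intron of Nfyc, rose by 0.58 ± 0.13 (adjusted p = 0.00233) and stood at 0.34 in set 4, and miR-30a-5p, the most abundant, rose by 0.29 ± 0.10 (adjusted p = 0.0202; lost when any 1 of 5 libraries was left out). miR-30d-5p stood at -0.05 (adjusted p = 0.678). The 5 summed 5p arms were 68482 to 79824 CPM in the young libraries and 75138 to 117683 CPM at 6 weeks, so the family's total overlapped between the ages.

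miR-301b-3p had the largest log2 difference of the miRNAs with a mean of 20 CPM or more, and its level differed between all 3 sets of 6 weeks. It was at 2.28 and 3.21 CPM at 4 weeks and at 2.73, 3.45 and 3.50 CPM at 5 weeks. It lay at 22.5 to 26.4 CPM in set 2, 57.1 to 77.2 CPM in set 3 and 3.52 to 3.98 CPM in set 4, so that the 3 ranges did not touch. All young and set 4 levels were below the filter of 5 CPM. The miRNA was thus tested, and reached a mean of 20 CPM, only through sets 2 and 3, where it was high. The lowest 6-week library, at 3.52 CPM, barely cleared the highest young one, at 3.50 CPM. The log2 difference was 3.44 ± 0.76 (adjusted p = 0.00229), 3.82 without set 4 and 0.34 in set 4 (adjusted p = 0.34). Its relative miR-301a-3p, chosen after its values were seen, stood at 343 to 526 CPM in the young libraries and 412 to 544 CPM at 6 weeks (0.28 ± 0.10, adjusted p = 0.0305; lost when any 1 of 8 libraries was left out). The pair summed to 347 to 529.5 CPM and 444 to 574 CPM, and within set 3, where miR-301b-3p was highest, miR-301a-3p was at 412 to 496 CPM.

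Other large rises differed in their size in set 4. miR-32-5p, from an intron of Tmem245, stood at 8.87 and 23.1 CPM at 4 weeks, at 11.7, 12.8 and 12.9 CPM at 5 weeks and at 22.8 to 37.2 CPM at 6 weeks (1.12 ± 0.18, adjusted p = 0.000271), with 1.15 without set 4 and 1.02 in set 4. miR-190a-5p rose by 1.08 ± 0.19 (adjusted p = 0.000396) and stood at 0.69 in set 4. miR-331-3p rose by 1.05 ± 0.24 (adjusted p = 0.00288), with 0.77 in set 4. miR-582-3p rose by 0.98 ± 0.23 (adjusted p = 0.00379) and stood at 0.16 in set 4. let-7j, a minor annotated relative, was called higher (0.94 ± 0.38, adjusted p = 0.0473), but its level was 118 to 131 CPM in set 2, 51.7 to 56.6 CPM in set 3 and 24.9 to 33.0 CPM in set 4, against 31.0 to 48.7 CPM in the young libraries, and the direction was the reverse in set 4 (-0.36) and in the female library of set 1 (-0.37). Its call was lost when any 1 of 14 libraries was left out.

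The let-7 family separated by arm. All 9 tested 5p arms, miR-98-5p included, were below the young libraries, 8 of them called lower, beside 22.1% of all tested, with log2 differences of -0.51 to -0.24. Of 10 tested 3p arms 4 were called higher and 0 lower, beside 28.4% and 22.1%, at a median of 0.28. Against the same young libraries the median of the 5p arms was -0.42 in set 4 and -0.31 in the female library of set 1, and that of the 3p arms was 0.26 and 0.31, with 0 calls in each. With libraries scaled by total counts all 9 of the 5p arms stayed below but 1 passed, near the 10.9% of all tested called lower. The count of calls thus depends on the scaling.

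let-7b-5p and let-7b-3p come from the same hairpin, in an exon of the non-coding gene Lncppara on chromosome 15. let-7b-5p was at 1135 and 942 CPM at 4 weeks, at 1379, 1599 and 1014 CPM at 5 weeks and from 767 over 840 to 970.3 CPM at 6 weeks (-0.51 ± 0.10, adjusted p = 0.00134). let-7b-3p was at 78.3 and 79.8 CPM at 4 weeks, at 64.8, 52.7 and 79.6 CPM at 5 weeks and from 93.3 over 106 to 117 CPM at 6 weeks (0.57 ± 0.10, adjusted p = 0.000548). The 5p arm overlapped between the ages through replicate 2 of 4 weeks, and the 3p arm did not overlap. let-7a-5p fell by 0.37 ± 0.08 (adjusted p = 0.00301), with -0.36 both without set 4 and in set 4 alone, and let-7c-5p fell by 0.44 ± 0.10 (adjusted p = 0.00364), with -0.49 in set 4. The summed family was 23402 to 36197 CPM in the young libraries and 20046 to 27883 CPM at 6 weeks.

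Both arms of 80 hairpins were tested, and 25 of these had both arms called: 13 with both higher, 5 with both lower and 7 with the arms apart. A single arm was called in 35 and neither arm in 20. These counts stand beside 50.5% of all miRNAs tested that were called, 28.4% higher and 22.1% lower. Whether the arms of a hairpin were called together more often than other miRNAs was not tested. The 7 with the arms apart were miR-99a, miR-340, miR-361, miR-486, miR-26b, let-7b and let-7d. In miR-340, from an intron of the ubiquitin ligase gene Rnf130 and chosen after its values were seen, the abundant 5p arm was at 143 to 212 CPM in the young libraries and 214 to 343 CPM at 6 weeks (0.80 ± 0.13, adjusted p = 0.000271). Its 3p arm was at 22.5 and 18.6 CPM at 4 weeks, 26.8, 28.3 and 30.1 CPM at 5 weeks and 13.1 to 16.2 CPM at 6 weeks (-0.78 ± 0.10, adjusted p = 9.72e-05). Neither arm overlapped between the ages, and in set 4 the 5p arm stood at 0.45 and the 3p arm at -0.70. miR-26b-5p rose by 0.91 ± 0.17 (adjusted p = 0.000811), with 0.35 in set 4, while its more abundant relative miR-26a-5p fell by 0.23 ± 0.07 (adjusted p = 0.0157), with -0.14 in set 4.

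**Figure D5:**
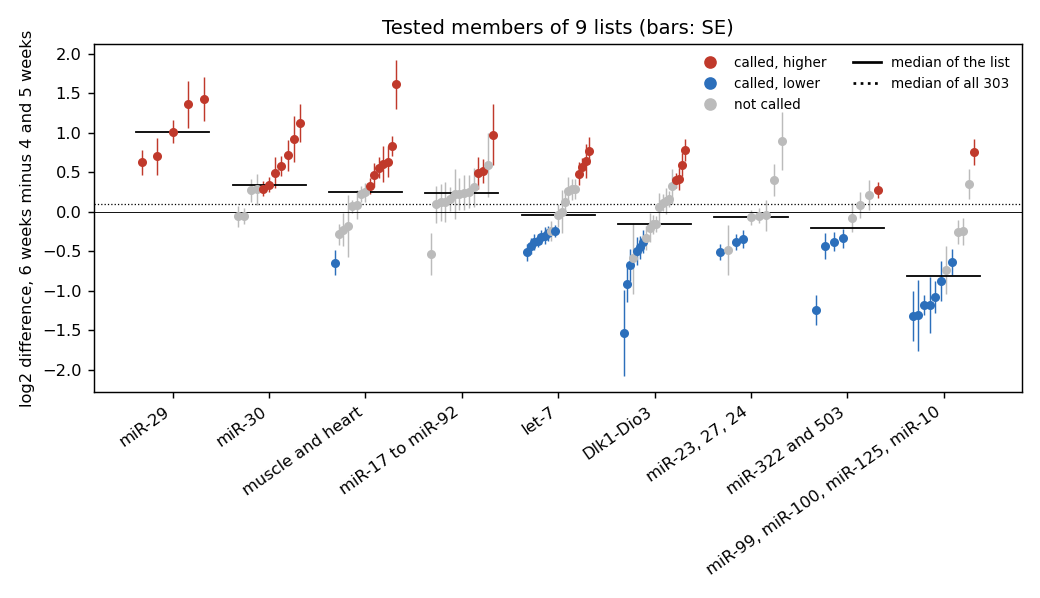
Log2 difference (6 weeks minus 4 and 5 weeks, bars SE) of every tested member of 9 lists of miRNAs, ordered within a list; solid lines are the list's median and the dotted line the median of all 303. All 5 miR-29 arms lie above 0.6, the miR-99, miR-100, miR-125 and miR-10 members have a median of -0.81, and let-7 divides into members below and above 0.

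The abundant heart muscle miRNAs miR-133a-3p and miR-22-3p did not pass the test. miR-133a-3p, a brake on cardiac growth, ranged from 68634 to 87182 CPM in the young libraries and from 70035 to 96641 CPM at 6 weeks (0.07 ± 0.08, adjusted p = 0.487). miR-22-3p, known to favour cardiac growth, ranged from 112233 to 148169 CPM and from 130686 to 194289.5 CPM (0.23 ± 0.10, adjusted p = 0.065). Its minor arm miR-22-5p was at 42.5 to 51.3 CPM in the young libraries and 63.0 to 104 CPM at 6 weeks, without overlap (0.84 ± 0.13, adjusted p = 0.000218), with 0.49 in set 4. Of 15 tested members of the muscle and heart muscle list 7 were higher and 1 lower, beside 28.4% and 22.1% of all tested, with a median of 0.24. The lower one was the abundant miR-486-5p, also a red blood cell miRNA, at a mean of 96060 CPM (-0.64, values below). Among the higher ones were miR-133a-5p (0.56 ± 0.13, adjusted p = 0.00364) and miR-378a-5p (0.33 ± 0.10, adjusted p = 0.0128), both minor arms.

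miR-1a-3p, which promotes muscle differentiation, differed by set. It was at 6509.7 and 4309 CPM at 4 weeks and at 6489.6, 6451 and 4591 CPM at 5 weeks, at 2325 to 4016 CPM in sets 2 and 3, and at 4657 to 16935 CPM in set 4. Over all 12 libraries the log2 difference was -0.18 ± 0.39 (adjusted p = 0.711), while it was -0.81 ± 0.14 without set 4 (adjusted p = 8.73e-05) and 0.92 in set 4 (adjusted p = 0.142). Thus sets 2 and 3 lay below the young range, and set 4 ran from inside it to above it.

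The miRNAs inside the myosin genes follow which heavy chain gene is transcribed, Myh6 being the adult and Myh7 the fetal form in the mouse ventricle. miR-208a-3p (intron of Myh6, chr14:54949072-54949093) was at 498 and 1252 CPM at 4 weeks and at 688, 405 and 697 CPM at 5 weeks, and ran from 813 over 1098 to 1344 CPM at 6 weeks. It rose by 0.64 ± 0.19 (adjusted p = 0.0142), with 0.58 without set 4, 0.83 in set 4 and 0.48 in the female library of set 1, and replicate 2 of 4 weeks was the 1 young library inside the 6-week range. Without replicate 1 of 4 weeks the adjusted p was 0.0853. The other arm of this hairpin, miR-208a-5p, did not pass (0.09 ± 0.18, adjusted p = 0.695 by edgeR). miR-208b-3p (intron of Myh7, chr14:54975710-54975731) was at 1432 and 1459 CPM at 4 weeks, at 1186, 1212 and 1216 CPM at 5 weeks and from 767 over 1066 to 1431 CPM at 6 weeks. It did not pass over all 12 (-0.29 ± 0.13, adjusted p = 0.0762), fell by 0.38 without set 4 (adjusted p = 0.00738) and stood at 0.01 in set 4. miR-499-5p (intron of Myh7b) was uneven among the young libraries, at 2612 and 1137 CPM at 4 weeks and 999.9, 2826 and 982 CPM at 5 weeks, against 1164 to 1714 CPM at 6 weeks (-0.23 ± 0.21, adjusted p = 0.357). Its minor arm miR-499-3p, at a mean of 24.5 CPM, was called higher (0.61 ± 0.23, adjusted p = 0.0373 by edgeR). Whether the 2 libraries with the high miR-499-5p differ in another way from the rest was not tested.

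The ages could be set against each other in 3 steps, which share libraries. Of 303 miRNAs 36 passed between 4 and 6 weeks (11.9%; 20 higher, 6.6%, and 16 lower, 5.28%), 113 between 5 and 6 weeks (37.3%; 69 higher, 22.8%, and 44 lower, 14.5%), and 0 between 4 and 5 weeks, where edgeR gave 31 and DESeq2 34 at an unadjusted p under 0.05. The 4-week group had 2 libraries, and without its replicate 1 the count between 4 and 6 weeks was 0 (58 at an unadjusted p under 0.05). It was 55 to 83 without replicate 8, 9 or 10 of 6 weeks, the libraries of set 4, and 18 to 32 without any other 1 library of 4 or 6 weeks. Between 5 and 6 weeks the count was 71 without replicate 1 of 5 weeks and 62 without its replicate 2. With 6-week set 4 left out 152 passed between 4 and 6 weeks (50.2%; 83 higher, 27.4%, and 69 lower, 22.8%) and 186 between 5 and 6 weeks (61.4%; 100 higher, 33.0%, and 86 lower, 28.4%). miR-29c-3p differed by 1.03 between 4 and 6 weeks, by 1.00 between 5 and 6 weeks and by 0.02 between 4 and 5 weeks. miR-101a-3p gave 1.30, 1.24 and 0.07, miR-125a-5p gave -1.02, -1.28 and 0.27, and miR-351-5p gave -1.35, -1.18 and -0.17. The let-7 5p arms gave smaller values from 4 weeks than from 5, as let-7a-5p with -0.17, -0.49 and 0.31, and let-7c-5p with -0.15, -0.60 and 0.46. miR-208a-3p gave 0.33, 0.88 and -0.55.

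Lists tied to the growth of the heart are given next beside the shares of all miRNAs tested, and several were near those shares. The Dlk1-Dio3 imprinted region holds a maternally expressed miRNA cluster that is highly active before birth. Of the list drawn up for it 20 were tested, 4 were higher and 6 lower, near the 28.4% and 22.1% of all tested, with a median of -0.16. The higher ones were both arms of miR-136 and both arms of miR-345 (0.41 and 0.60). Whether miR-345 lies within the cluster was not checked, and the counts hold for the list only. miR-127-3p, the most abundant member of the cluster, was at 2641 and 2574 CPM at 4 weeks, at 2360.4, 2443 and 2510 CPM at 5 weeks, at 846 to 1212 CPM in sets 2 and 3 and at 2049 to 2499.6 CPM in set 4. It fell by 0.92 ± 0.23 (adjusted p = 0.00484), by 1.29 without set 4 and by 0.14 in set 4. miR-136-5p of the same cluster rose by 0.79 ± 0.14 (adjusted p = 0.000502), from 21.8 to 34.6 CPM in the young libraries to 33.7 to 57.0 CPM, with 0.53 in set 4. miR-409-5p fell by 1.54 ± 0.54 (adjusted p = 0.0276), by 2.68 without set 4 and by 0.15 in it, and the call was lost without replicate 2 of 4 weeks or replicate 3 of 5 weeks (highest adjusted p = 0.0933).

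Of the X-linked miR-322 and miR-503 cluster, which slows the cell cycle in muscle precursors, 8 were tested, 4 were lower and 1 higher, beside 22.1% and 28.4% of all tested, with a median of -0.21. miR-322-5p fell by 0.34 ± 0.12 (adjusted p = 0.0305), with -0.04 in set 4, and its call was lost without replicate 2 of 4 weeks or replicate 1 of 5 weeks (highest adjusted p = 0.0733). Of 14 tested members of the miR-17 to miR-92 clusters, which drive cell division, 3 were higher and 0 lower, so that the higher ones were no larger a share than the 28.4% of all tested. Of 10 in the miR-15 and miR-16 family, which halts heart muscle cell division after birth in the mouse, 4 were higher and 1 lower, beside the same 28.4% and 22.1%. miR-16-5p rose by 0.49 ± 0.17 (adjusted p = 0.0235; lost when any 1 of 5 libraries was left out), and stood at 0.39 in set 4 and at -0.16 in the female library of set 1. Of 30 tested miRNAs tied to hypertrophy and stress 3 were higher and 8 lower. The lower ones were near the 22.1% of all tested and the higher ones below the 28.4%. Among them miR-212-5p fell by 1.28 ± 0.41 (adjusted p = 0.0171), by 1.98 without set 4 and by 0.16 in set 4, with the call lost without the same 2 libraries of 4 and 5 weeks as for miR-409-5p. miR-21a-5p, which rises in the stressed heart, rose by 0.41 ± 0.10 (adjusted p = 0.00468), with 0.21 in set 4.

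The remaining families held few calls, to be read beside the 28.4% higher and 22.1% lower of all miRNAs tested. In the miR-23, miR-27 and miR-24 clusters 3 of 9 tested arms were lower and 0 higher: miR-27b-3p, a vessel and heart miRNA, was at 55024 to 67522 CPM in the young libraries and 37765 to 60899 CPM at 6 weeks (-0.51 ± 0.10, adjusted p = 0.00103), with -0.21 in set 4, and miR-23a-3p fell by 0.38 ± 0.10 (adjusted p = 0.00675), with -0.15 in set 4. In the miR-199 and miR-214 cluster, expressed in connective tissue cells, 2 of 5 were lower and 0 higher, and in the miR-378 family, housed in the metabolic regulator gene Ppargc1b, 2 of 3 were higher. Of the miR-181 family 2 of 7 were higher, of the miR-148 and miR-152 family 1 of 6 was lower, and of miR-221 and miR-222 1 of 3 was higher and 1 lower. The lower one, miR-221-5p, was at 14.2 to 83.3 CPM in the young libraries and 8.45 to 40.6 CPM at 6 weeks (-1.29 ± 0.35, adjusted p = 0.00682), with -0.53 in set 4. miR-501-3p fell by 1.22 ± 0.41 (adjusted p = 0.0234), by 1.80 without set 4 and by 0.20 in it; its call was lost without replicate 2 of 4 weeks or replicate 3 of 5 weeks, its highest young libraries. The abundant miR-148a-3p (0.18 ± 0.09, adjusted p = 0.078), miR-181a-5p (-0.19 ± 0.13, adjusted p = 0.225), miR-378a-3p (0.24 ± 0.12, adjusted p = 0.0936) and miR-92a-3p (0.09 ± 0.23, adjusted p = 0.741) did not pass.

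Bulk RNA of the heart mixes heart muscle with blood, vessel and connective tissue cells, and fewer cells of a type and less RNA per cell cannot be told apart. Of 10 tested miRNAs of the red blood cell list 3 were higher and 1 lower, beside 28.4% and 22.1% of all tested, with a median of 0.47. The red blood cell miRNA miR-486-5p, also a muscle miRNA and the one lower member, was at 106705 to 153672 CPM in the young libraries and 61134 to 122521 CPM at 6 weeks. It fell by 0.64 ± 0.16 (adjusted p = 0.00484), while its 3p arm rose by 0.46 ± 0.15 (adjusted p = 0.0189; lost when any 1 of 4 libraries was left out). The erythroid miR-451a (0.66 ± 0.39), miR-144-3p (0.70 ± 0.41) and miR-144-5p (0.69 ± 0.41) lay on the other side of 0 and did not pass (adjusted p = 0.164 for each). The summed red blood cell markers were 111757 to 156945 CPM and 65556 to 143497 CPM, mostly miR-486-5p. Of 7 tested miRNAs of the white blood cell list 3 were higher and 2 lower, beside 28.4% and 22.1% of all tested, with a median of 0.02. The lower ones were miR-146a-5p, given above, and miR-342-3p, which fell by 0.84 ± 0.24 (adjusted p = 0.0102) and lay at 88.9 to 129 CPM in sets 2 and 3 and at 188 to 242 CPM in set 4, against 147.5 to 331 CPM in the young libraries. The myeloid miR-223-3p stood at -0.11 (adjusted p = 0.624). Of the higher ones, miR-142a-3p rose by 1.30 ± 0.34 (adjusted p = 0.00579), with 0.59 in set 4, and miR-150-5p, a lymphocyte miRNA, by 0.71 ± 0.25 (adjusted p = 0.0287), though it stood at -0.28 in set 4 and its call was lost when any 1 of 8 libraries was left out. Yet miR-142a-5p, the abundant arm of miR-142a, stood at 0.02 (adjusted p = 0.943), and the summed white cell markers were 2366 to 2980 CPM and 2226 to 6126 CPM. The part of blood in the results above was not tested.

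Of 8 tested miRNAs of the endothelial list 2 were higher and 2 lower, near the 28.4% and 22.1% of all tested. The lower ones were miR-10a-5p and miR-221-5p, both given above. The endothelial miR-126a-3p rose by 0.56 ± 0.11 (adjusted p = 0.00102), with 0.39 in set 4. Its more abundant 5p arm, miR-126a-5p, did not pass (0.20 ± 0.16, adjusted p = 0.308), with -0.05 in set 2, -0.10 in set 3 and 0.66 in set 4, and both arms together were at 30061 to 41493 CPM in the young libraries and 32151 to 65951 CPM at 6 weeks. The smooth muscle miRNA miR-143-3p had the highest mean level over the 17 libraries, which rested on replicates 2 and 6 of 6 weeks. It stood at 111991 to 129811 CPM in the young libraries. At 6 weeks those replicates held 625509 and 658862 CPM and the other 10 libraries 75431 to 120258 CPM, a range that overlaps the young one. The median at 6 weeks was 106392 CPM, below the 158088 CPM of miR-22-3p. Over all 12 the log2 difference of miR-143-3p was 0.65 ± 0.53 (adjusted p = 0.302). Without replicates 2 and 6, 113 of the 303 miRNAs passed (37.3%). Of markers of other tissues, the liver ones summed to 1836 to 2147 CPM in the young libraries and 1537 to 2282 CPM at 6 weeks. The 8 epithelial and lung markers summed to 142 to 271 CPM and 143 to 218 CPM. Those of brain and nerve summed to 145 to 225 CPM in the young libraries, 225 to 339 CPM in sets 2 and 3 and 149.5 to 153 CPM in set 4; of them miR-124 was at 0 in all 17. miR-206 of skeletal muscle was at 0 in the young libraries and at most 0.0735 CPM at 6 weeks. The heart muscle markers summed to 77151 to 98398 CPM and 75878 to 104345 CPM.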

How the data were processed

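Small RNA was sequenced from hearts of male FVB/NJ mice with a TruSeq small RNA kit, per the labels' protocols. The values are whole-number counts per mature miRNA arm and locus, deposited by the authors as 1 file per library. GRCm38, DESeq and edgeR are named in the submitters' processing notes with neither role nor version, and no aligner or rule for reads of several loci is given there. Counts are of reads, not of tagged molecules, and ligation favours some sequences, so levels of different miRNAs are not directly comparable. Rows, antisense ones included, were named by the miRNA annotated on the strand that was read. The deposited name was used where no miRNA was annotated there.

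Rows whose mature sequences share bases 3 to 20 were summed to 1 miRNA (1310 with counts). A miRNA was tested (303 were) if 5 or more of the 17 libraries reached 5 CPM, by the quasi-likelihood test of edgeR 4.0.16 under R 4.3.3 after TMM scaling, with Benjamini-Hochberg adjustment over all of them, and called at an adjusted p under 0.05. Steps between single ages used 1 fit with 3 levels of age. Log2 differences carry the SE from the fit. DESeq2 1.42.0, limma-voom 3.58.1, total counts as the scaling, other filters, rows as deposited, replicate numbers as a block, library sets and each library left out were tried as alternatives. Library sets were made by clustering the split of counts between copies, with the number of sets fixed at 4. Female libraries were assigned to the nearest set mean. No library pair agreed within sampling noise. The tests were checked on simulated data. The sequences printed are from RefSeq (GRCm38.p6) and hosts from GENCODE M21, and coordinates are those of the files. For the summing, 1064 of the 1545 rows took a RefSeq mature sequence, with 55.0% of counts. Another 459 took the bases at their coordinates from GENCODE transcripts, and 22 had no sequence.

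Members, lists, tests and sets were chosen with earlier results of these data known. Named miRNAs were the 12 that rose most and the 12 that fell most of those called at an average level of at least 20 CPM, the 6 most abundant and the most abundant tested member of each list; other list members were added.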

Additional observations from a re-analysis of the deposited data

Results flagged for a closer look

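In 8 of the 78 groups of 5 young libraries examined, 1 for each named miRNA, 1 library stood far from the other 4; chance flags about 1 in 20 such groups. Replicate 2 of 4 weeks was the highest for miR-29b-3p (57.6 CPM), miR-142a-3p (86.9 CPM), miR-32-5p (23.1 CPM) and miR-136-5p (34.6 CPM), and the lowest for miR-22-3p (112233 CPM), miR-133a-3p (68634 CPM) and miR-150-5p (367 CPM). Replicate 3 of 5 weeks was the highest for miR-125b-5p (24176 CPM), with the next at 14810 CPM.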

How the results depend on the processing

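The count of 153 miRNAs called between 6 weeks and 4 to 5 weeks was 118 to 171 when each library was left out in turn. It was 24 without the 5-week libraries, 0 with 6-week set 4 alone, 161 with set 2 alone and 172 with set 3 alone. All of these fits hold fewer libraries than the main one. The count was 160 with DESeq2, 150 with limma-voom and 127 with the replicate number as a block. Between 4 and 6 weeks the count of 36 was 0 with total counts alone (66 at an unadjusted p under 0.05), 58 with DESeq2, 5 with no filter on low counts, 152 without set 4, 103 with the replicate block, and 0 to 83 over libraries left out. Between 5 and 6 weeks the count of 113 was 63 with total counts alone, 186 without set 4 and 62 to 139 over libraries left out. Between 4 and 5 weeks it was 0 to 2. The cause of these shifts was not tested. Replicate numbers do not pair the libraries: deviations of same-numbered libraries correlated at -0.39 to 0.28.

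Of 57 named miRNAs that were called, 16 lost the call for some left-out library and none changed direction. Directions turned as follows. In set 4 alone: let-7j (-0.36), miR-143-3p (-0.055), miR-378a-3p (-0.059), miR-92a-3p (-0.56), miR-221-3p (-0.043), miR-192-5p (0.084), miR-128-3p (-0.28), miR-193b-3p (0.25), miR-208b-3p (0.011), miR-1a-3p (0.92), miR-30c-5p (-0.053), miR-146b-5p (0.080), miR-145a-3p (0.15) and miR-150-5p (-0.28). In the female library of set 1: let-7j (-0.37), miR-22-3p (-0.042), miR-133a-3p (-0.022), miR-378a-3p (-0.10), miR-335-5p (-0.047), miR-10a-5p (0.42), miR-16-5p (-0.16), miR-92a-3p (-0.50), miR-142a-5p (-0.0060), miR-203-3p (-0.13), miR-192-5p (0.14), miR-128-3p (-0.47), miR-193b-3p (0.31), miR-30c-5p (-0.11), miR-23a-3p (0.014), miR-486-3p (-0.25), miR-145a-3p (0.061), miR-150-5p (-0.35) and miR-434-5p (0.11). Without the libraries rich in miR-143-3p: miR-143-3p (-0.33, a direction that the choice of libraries by its level favours), miR-133a-3p (-0.023), miR-92a-3p (-0.0090), miR-132-3p (-0.017) and miR-142a-5p (-0.0078). With a filter of 20 CPM: miR-133a-3p (-0.0038), miR-132-3p (-0.030) and miR-142a-5p (-0.035). Without 4 weeks: miR-133a-3p (-0.070), miR-92a-3p (-0.15), miR-132-3p (-0.025), miR-142a-5p (-0.068) and miR-203-3p (-0.083). Without 5 weeks: miR-335-5p (-0.095), miR-181a-5p (0.095), miR-132-3p (-0.045), miR-142a-5p (-0.0045) and miR-126a-5p (-0.097). With set 2 alone: miR-133a-3p (-0.061), miR-132-3p (-0.078), miR-126a-5p (-0.050) and miR-203-3p (-0.047). With set 3 alone: miR-92a-3p (-0.0095), miR-132-3p (-0.13), miR-142a-5p (-0.54) and miR-126a-5p (-0.10). For miR-132-3p and miR-142a-5p: DESeq2 (-0.0031 and -0.0056), the replicate block (-0.011 and -0.28) and sets 2 and 3 (-0.0076 and -0.061); limma-voom gave miR-142a-5p -0.097. Over left-out libraries miR-133a-3p ran from -0.031 to 0.091, miR-499-5p from -0.38 to 0.027, miR-92a-3p from -0.11 to 0.26, miR-132-3p from -0.057 to 0.15 and miR-142a-5p from -0.25 to 0.12.

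The smallest library held 3970178 counts, and miRNAs below the filter of 5 CPM are not described.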
